A study of Mus musculus with 4 samples.

Results

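The 10 genes described here encode 7 proteins that are secreted into serum (Afp, Ttr, Apoa1, Apoa2, Apob, Apoe and Rbp4) and 3 parts of an endocytic receptor complex (Amn, Cubn and Dab2). They were picked by symbol as genes known from visceral endoderm, by a rule that uses no measured value but was written with earlier results of these data known, and are 10 of the 24421 genes counted by the authors. All 10 had counts in these data, and all 10 had a mean normalized count of at least 5 over the libraries.

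The 4 Illumina TruSeq libraries came from R1, an established line of mouse embryonic stem cells (ESCs), as 2 Undiff and 2 Day4 libraries from cultures that were grown separately. Day4 is embryoid bodies, cell aggregates grown for 4 days without leukaemia inhibitory factor and then for 4 days with retinoic acid (RA). RA, a derivative of vitamin A, is given as 2 µM in the study's methods and 2 mM in the treatment label. Undiff is maintained stem cells with leukaemia inhibitory factor in the methods and embryoid bodies in the labels. The design figure of the study gives 4 days of growth for Undiff. No genetic change is stated for R1 in either state. Loss of that factor, gain of RA, time in culture and, by the methods, growth as aggregates cannot be told apart here. No Day4 library without RA was compared. The ESC markers Pou5f1, Nanog and Zfp42 were present in both Undiff libraries, with Pou5f1 at 31358 and 31984 normalized counts, against 142 and 131 in Day4. Totals on genes ran from 32099074 to 47730944 counts, and levels are given as normalized counts or as normalized CPM (counts relative to the scaled total of the library). The floor of detection used here, 3 counts in a library, was 0.0629 to 0.0935 CPM before scaling.

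Visceral endoderm is the epithelium that wraps the early mouse embryo and later lines the yolk sac. Before the liver works, it makes many of the proteins of fetal serum, packs lipid into lipoproteins with apolipoproteins, and sends out retinol bound to the RBP4 and transthyretin pair. On its apical face, cubilin takes up apolipoprotein A-I and vitamin-carrying proteins. Cubilin has no membrane span of its own and reaches the surface with amnionless, it works beside the large receptor megalin (Lrp2), and the adaptor DAB2 links such receptors to clathrin.

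The 10 genes did not move together. A differentially expressed gene (DEG) had to pass an adjusted p-value of 0.05 in edgeR, change by 1 or more on the log2 scale in either direction, and reach a mean of 5 normalized counts. By this rule, Afp, Ttr, Apoa1, Rbp4 and Dab2 were higher in Day4, and Apoa2, Apoe, Amn and Cubn were lower. Apob was not a DEG, although the adjusted p-value was at most 0.05 for all 10 genes and for 75.6% of all genes tested. Among all 19891 genes tested, 22.2% were DEGs with a higher level in Day4 and 20.6% with a lower one, 42.8% in either direction. All 10 members reached the minimum mean of 5, and of the 16472 genes that did, 51.7% were DEGs. Without a minimum fold change, 7305 higher and 7004 lower genes among these 16472 passed. The median log2 fold change was 0.35 over the 10 genes and -0.03 over all genes tested. The levels of the 2 Day4 libraries lay outside those of the 2 Undiff libraries for all 10 genes, above for 5 and below for 5. This was the case for 85.4% of all genes tested, 42.7% above and 42.7% below. With 2 libraries against 2, the smallest two-sided exact permutation p-value is 0.333, so the tests below rest on the spread that edgeR estimated across all genes. In RNA from whole aggregates, fewer cells of a type and less RNA per cell cannot be told apart.

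**Figure D1:**
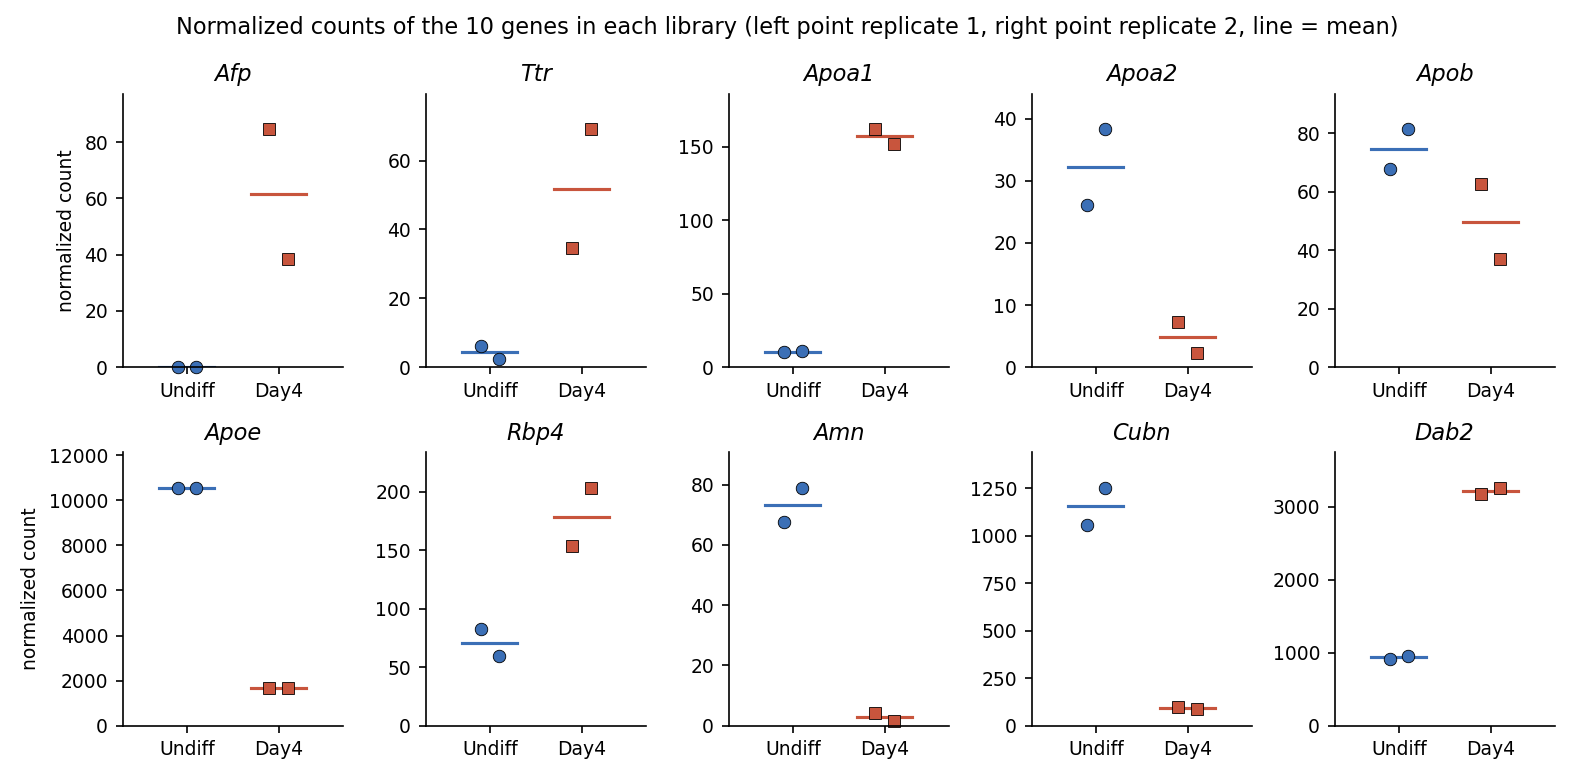
Normalized counts of the 10 genes (vertical axes, each from 0 and on its own scale) in the Undiff libraries (blue circles) and the Day4 libraries (red squares), with the left point for replicate 1, the right point for replicate 2 and a line at the mean. Afp was at 0 in both Undiff libraries, Apoe lay near 10554 in Undiff and 1675 in Day4, and the Day4 replicates of Afp and Ttr stood apart from each other in opposite directions.

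Afp encodes alpha-fetoprotein, the main serum protein of the fetus and a classical product of visceral endoderm. No fragment was counted in either Undiff library. The Day4 libraries held 84.6 and 38.4 normalized counts (81 and 50 counts), a mean of 61.5 ± 32.7 (SD, n = 2). Against the floor of 3 counts in each Undiff library, Day4 was at least 18.3-fold higher (edgeR adjusted p = 2.5e-05). With Day4 replicate 1 alone the bound was 25.2-fold, and with replicate 2 alone 11.4-fold. The Day4 replicates differed from each other by 2.20-fold (95% exact counting interval 1.53 to 3.20), which is more than counting error gives. In CPM, the Day4 libraries were at 2.26 and 1.03, and in Undiff the floor was 0.0818 and 0.0935 before scaling.

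The bases in front of Afp are shown because Afp was the only one of the 10 genes without a count in a state. Afp lies at chr5:90490737-90508907 on the plus strand (GRCm38, GENCODE vM21). The sequence is that of RefSeq on GRCm38.p6, from the plus strand of chr5:90490464-90490713, and ends just before the RefSeq start, which lies 23 bases upstream of the GENCODE start. Capitals mark GTTAAT, the core of sites for the endoderm factor HNF1, and TATAAA, the TATA box.
Afp: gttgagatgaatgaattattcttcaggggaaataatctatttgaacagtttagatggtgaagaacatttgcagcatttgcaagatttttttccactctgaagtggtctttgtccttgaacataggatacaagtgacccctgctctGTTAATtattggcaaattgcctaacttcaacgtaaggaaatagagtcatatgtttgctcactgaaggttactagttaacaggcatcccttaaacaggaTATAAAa
The first base of GTTAAT lies 105 bases and that of TATAAA 7 bases before the RefSeq start. These are matches of letters, and no binding was measured.

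Of the genes beside Afp in the albumin cluster, only Gc was above the floor in a state, and it was lower in Day4. Alb, which encodes albumin, had 0 counts in all 4 libraries. Afm, afamin, had 0 counts in both Undiff libraries and 2 and 1 counts in Day4, which is at or under the floor in both states. Gc, the vitamin D binding protein, had 16 and 14 counts in Undiff and 6 and 1 in Day4, which is -2.39 on the log2 scale (SE 0.63, edgeR adjusted p = 0.0038). Without Day4 replicate 2 the change of Gc was -1.43 and no longer passed (adjusted p = 0.056, with a range of 0.00036 to 0.056 over the alternatives), and without Day4 replicate 1 it was -4.24.

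Both carriers of retinol in serum were higher in Day4. Ttr encodes transthyretin, which carries thyroid hormone and holds the retinol-binding protein in the blood. Its Undiff libraries held 6.25 and 2.39 normalized counts, and its Day4 libraries 34.5 and 69.1. The 2 states did not overlap, but the second Day4 library was 2.00-fold above the first (95% exact counting interval 1.33 to 3.08). The means were 4.32 ± 2.73 and 51.8 ± 24.5 (SD, n = 2 each), and the log2 fold change was 3.57 (SE 0.54, edgeR adjusted p = 4.4e-05). Since Undiff held only 6 and 2 counts, the ratio of the pooled counts, 12.2, has a wide 95% exact counting interval of 6.01 to 28.9. Single libraries moved the log2 fold change of Ttr between 2.88 (without Day4 replicate 2) and 4.44 (without Undiff replicate 1).

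Rbp4 encodes the serum retinol-binding protein and lies at chr19:38116629-38125281 on the minus strand. It was counted in every library, at 82.3 and 59.8 normalized counts in Undiff and 154 and 203 in Day4. Day4 was higher by 2.51-fold, from 71.1 ± 15.9 to 178.5 ± 35.3 (SD, n = 2 each), with a log2 fold change of 1.34 (SE 0.19, edgeR adjusted p = 2.7e-05). The ratio of Rbp4 to Ttr counts was 13.2 and 25 in Undiff and 4.45 and 2.94 in Day4, with Ttr the steeper of the pair. The Day4 replicates of Rbp4 differed by 1.32-fold (95% exact counting interval 1.08 to 1.63), with replicate 2 above replicate 1, as for Ttr and opposite to Afp.

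Other genes of retinol handling were higher in Day4 as well. Stra6, the cell-surface receptor for RBP4, had 30 and 18 counts in Undiff and 1067 and 1719 in Day4, a log2 fold change of 5.51 (SE 0.16, edgeR adjusted p = 2e-12). Lrat, which esterifies retinol for storage, changed by 5.94 (SE 0.25, edgeR adjusted p = 8e-11). Rbp2 and Rbp3, the carriers of gut and retina, were under the minimum mean of 5 normalized counts and could not be called. Rbp2 had 0 and 1 counts in Undiff and 6 and 8 in Day4, and Rbp3 had 3 and 1 in Undiff and 4 and 3 in Day4.

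The apolipoproteins split. Apoa1, the main protein of high-density lipoprotein and a cargo of cubilin, was higher in Day4, with tight replicates. It had 10.4 and 10.8 normalized counts in Undiff and 162 and 152 in Day4. The means of 10.6 ± 0.246 and 157 ± 7.0 (SD, n = 2 each) differ by 14.8-fold, or 3.87 on the log2 scale (SE 0.24, edgeR adjusted p = 5.2e-09). Leaving out any one library kept this value between 3.83 and 3.89.

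Apoa1 lies at chr9:46228580-46230466, in a cluster with Apoc3, Apoa4 and Apoa5. Apoa4, a protein of gut lipoproteins, had 2 and 1 counts in Undiff and 24 and 47 in Day4. The ratio of its pooled counts was 18.8 (95% exact counting interval 6.18 to 93.3, edgeR adjusted p = 1.6e-05). Apoc3, which slows the breakdown of triglyceride-rich particles, was at 0 counts except for 3 in Day4 replicate 2. Apoa5 had 4 and 4 counts in Undiff and 2 and 0 in Day4 and was not a DEG. Apoa1 and Apoa4 thus passed the test, while Apoc3 and Apoa5 were under the minimum mean of 5 normalized counts and could not be called.

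Apoe was lower in Day4. It encodes apolipoprotein E, the ligand by which lipoprotein remnants bind their receptors, and lies at chr7:19696109-19699188 on the minus strand. Its Undiff libraries held 10548 and 10559 normalized counts, and its Day4 libraries 1662 and 1688. The fall of 6.30-fold, from 10554 ± 8.0 to 1675 ± 18.1 (SD, n = 2 each), was far larger than the spread between replicates (log2 fold change -2.66, SE 0.05, edgeR adjusted p = 1.3e-14). It was at 282 CPM in both Undiff libraries and at 44.4 and 45.1 CPM in Day4.

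The nearest relatives of Apoe on chromosome 7 are Apoc1, Apoc2 and Apoc4. Apoc1, a small protein of the same particles, had 373 and 352 counts in Undiff and 29 and 46 in Day4. It was lower in Day4, at -3.60 on the log2 scale (SE 0.15, edgeR adjusted p = 5.8e-11). The ratio of Apoe to Apoc1 counts went from 27.1 and 25.1 in Undiff to 54.9 and 47.8 in Day4, so the pair did not fall in proportion. Apoc2 and Apoc4 had at most 2 counts in any library.

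Apoa2, the second protein of high-density lipoprotein, went the other way from Apoa1. It had 26.1 and 38.3 normalized counts in Undiff and 7.31 and 2.30 in Day4 (7 and 3 counts), and the states did not overlap. The means were 32.2 ± 8.65 and 4.81 ± 3.54 (SD, n = 2 each), with a log2 fold change of -2.81 (SE 0.49, edgeR adjusted p = 0.00016). The pooled counts were 7.17-fold higher in Undiff (95% exact counting interval 3.63 to 15.8), and the log2 fold change was -2.13 without Day4 replicate 2 and -3.72 without Day4 replicate 1. The ratio of Apoa1 to Apoa2 counts was 0.4 and 0.281 in Undiff and 22.1 and 66.0 in Day4. Apoa2 lies at chr1:171225054-171226379.

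Apob encodes the large scaffold protein of very-low-density lipoprotein and lies at chr12:7977648-8016835. It had 67.7 and 81.4 normalized counts in Undiff and 62.7 and 36.9 in Day4. The means of 74.5 ± 9.64 and 49.8 ± 18.3 (SD, n = 2 each) gave a log2 fold change of -0.63 (SE 0.25, edgeR adjusted p = 0.038), which is under the minimum fold change. The call depended on single libraries. Without Day4 replicate 1 the change was -1.01 (adjusted p = 0.0039) and Apob passed as a DEG, and without Day4 replicate 2 it was -0.27 (adjusted p = 0.38). These are also the lowest and the highest adjusted p over all alternatives.

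Among the 9 other apolipoproteins listed, Apoa4 was higher and Apoc1, Apom and Apof were lower in Day4, with a median log2 fold change of -2.18 over the 9. The minimum mean count was reached by 5 of the 9. Over the 6 that were above the floor in at least 1 state, with Apof at its bound, the median was -1.62. Apof, an inhibitor of lipid transfer between lipoproteins, had 28 and 35 counts in Undiff and none in Day4, which was at least 13.1-fold lower (edgeR adjusted p = 4.9e-06).

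Of the receptor complex, Cubn and Amn were lower in Day4 and the adaptor Dab2 was higher. Cubn encodes cubilin and lies at chr2:13276338-13491813 on the minus strand. It had 1059 and 1253 normalized counts in Undiff and 96.1 and 87.5 in Day4. The means of 1156 ± 137 and 91.8 ± 6.07 (SD, n = 2 each) differ by 12.6-fold, or -3.66 on the log2 scale (SE 0.12, edgeR adjusted p = 4.5e-12). The Undiff replicates of Cubn differed by 1.18-fold (95% exact counting interval 1.08 to 1.29), far less than the states.

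Amn encodes amnionless, the partner without which cubilin does not reach the cell surface. It had 67.7 and 79.0 normalized counts in Undiff and 4.18 and 1.54 in Day4 (4 and 2 counts). The means were 73.4 ± 7.94 and 2.86 ± 1.87 (SD, n = 2 each), with a log2 fold change of -4.72 (SE 0.41, edgeR adjusted p = 1.5e-07). The pooled counts were 27.5-fold higher in Undiff, with a 95% exact counting interval of 12.3 to 76.2 that the few Day4 counts leave wide. Without Day4 replicate 1 the log2 fold change was -5.46, and without Day4 replicate 2 it was -4.11. The ratio of Cubn to Amn counts was 15.6 and 15.9 in Undiff and 23.0 and 57.0 in Day4, where it rests on few Amn counts.

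The bases in front of Cubn and Amn are shown beside those of Afp because these 2 partners went down where Afp went up. Cubn is read from the minus strand of chr2:13491877-13492126 and Amn from the plus strand of chr12:111270846-111271094 (RefSeq, GRCm38.p6), in both cases up to the start and outside the exons of the gene. Neither sequence holds a match to any motif searched, so no letter is in capitals.
Cubn: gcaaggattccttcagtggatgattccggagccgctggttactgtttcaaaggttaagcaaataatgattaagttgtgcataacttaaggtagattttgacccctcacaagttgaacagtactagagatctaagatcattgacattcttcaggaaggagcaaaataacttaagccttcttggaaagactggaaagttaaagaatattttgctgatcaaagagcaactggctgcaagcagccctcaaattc
Amn: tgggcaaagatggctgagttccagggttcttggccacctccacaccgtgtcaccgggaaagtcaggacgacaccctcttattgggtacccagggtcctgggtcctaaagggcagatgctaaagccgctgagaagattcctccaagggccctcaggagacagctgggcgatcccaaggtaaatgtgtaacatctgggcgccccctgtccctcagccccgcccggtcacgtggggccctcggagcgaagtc
The windows searched run from 250 bases before to 50 bases after each RefSeq start. Of the 10 genes, 9 had such windows, and Ttr, which had none, was not searched.

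The motifs were searched on both strands, and a gene counts where any of its windows holds the letters. GTTAAT was found for Afp, Apoe and Dab2, and in 8.24% of all 27025 genes with a window. TATAAA was found for Afp, Apoa2, Apob, Apoe and Rbp4, and in 15.7% of all genes. The FOXA letters TGTTTAC or TATTTAC were found for Apoa2, Apoe and Rbp4 (7.35% of all genes), and the GATA letters AGATAA or TGATAA for Apoa1 and Dab2 (21.0%). AGGTCA, to which nuclear receptors bind, was found for Apoa2 (18.1%). None of the 9 members searched had CAAAGTCCA, a site of HNF4 (0.555% of all genes), or AGGTCA repeated after 1 base (0.0481%) or 5 bases (0.0111%). GTTAAT facing its own complement across 1 base (0.0111%) was also absent from these 9. The repeats contain AGGTCA, and the facing pair contains GTTAAT, so these motifs overlap. The genes with GTTAAT, with TATAAA and with the FOXA letters held both higher and lower DEGs, while both genes with the GATA letters were higher and the gene with AGGTCA was lower. These are too few genes to relate letters to direction, which was not tested. The 9 members had 14 windows and all 27025 genes had 32851, so the members had more windows per gene in which to find a match.

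Dab2 was higher in Day4. It encodes a clathrin adaptor that binds the tail of megalin, and lies at chr15:6299788-6440712. It had 919 and 957 normalized counts in Undiff and 3177 and 3264 in Day4. The means of 938 ± 26.9 and 3220 ± 61.6 (SD, n = 2 each) differ by 3.43-fold, or 1.78 on the log2 scale (SE 0.05, edgeR adjusted p = 3.1e-12). The ratio of Dab2 to Cubn counts was 0.868 and 0.764 in Undiff and 33.1 and 37.3 in Day4, so the adaptor and the receptor moved apart.

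Megalin went down with cubilin but less steeply. Lrp2 had 3434 and 3274 counts in Undiff and 891 and 1135 in Day4, and its log2 fold change was -2.06 (SE 0.06, edgeR adjusted p = 2.5e-12). The ratio of Cubn to Lrp2 counts was 0.296 and 0.320 in Undiff and 0.103 and 0.100 in Day4. Of the 18 genes listed for the endocytic machinery of these receptors, Lrp2 was the only one lower in Day4 and 2 were higher, with a median log2 fold change of 0.05. Those 2 were Gipc1, an adaptor of megalin (1.37, SE 0.05, edgeR adjusted p = 3.7e-11), and Rab11a, a GTPase of recycling endosomes (1.07, SE 0.05, adjusted p = 1.1e-10). The other 15, among them clathrin and the AP-2 subunits, were not DEGs, and their summed level with the rest of the list was between 2440 and 2446 CPM in Undiff and 2320 and 2339 in Day4. This sum holds smaller changes in both directions. The clathrin gene Cltc changed by -0.72 (SE 0.04, edgeR adjusted p = 1.2e-09) and Clcn5 by 0.97 (SE 0.06, adjusted p = 4.1e-09), both under the minimum fold change.

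**Figure D2:**
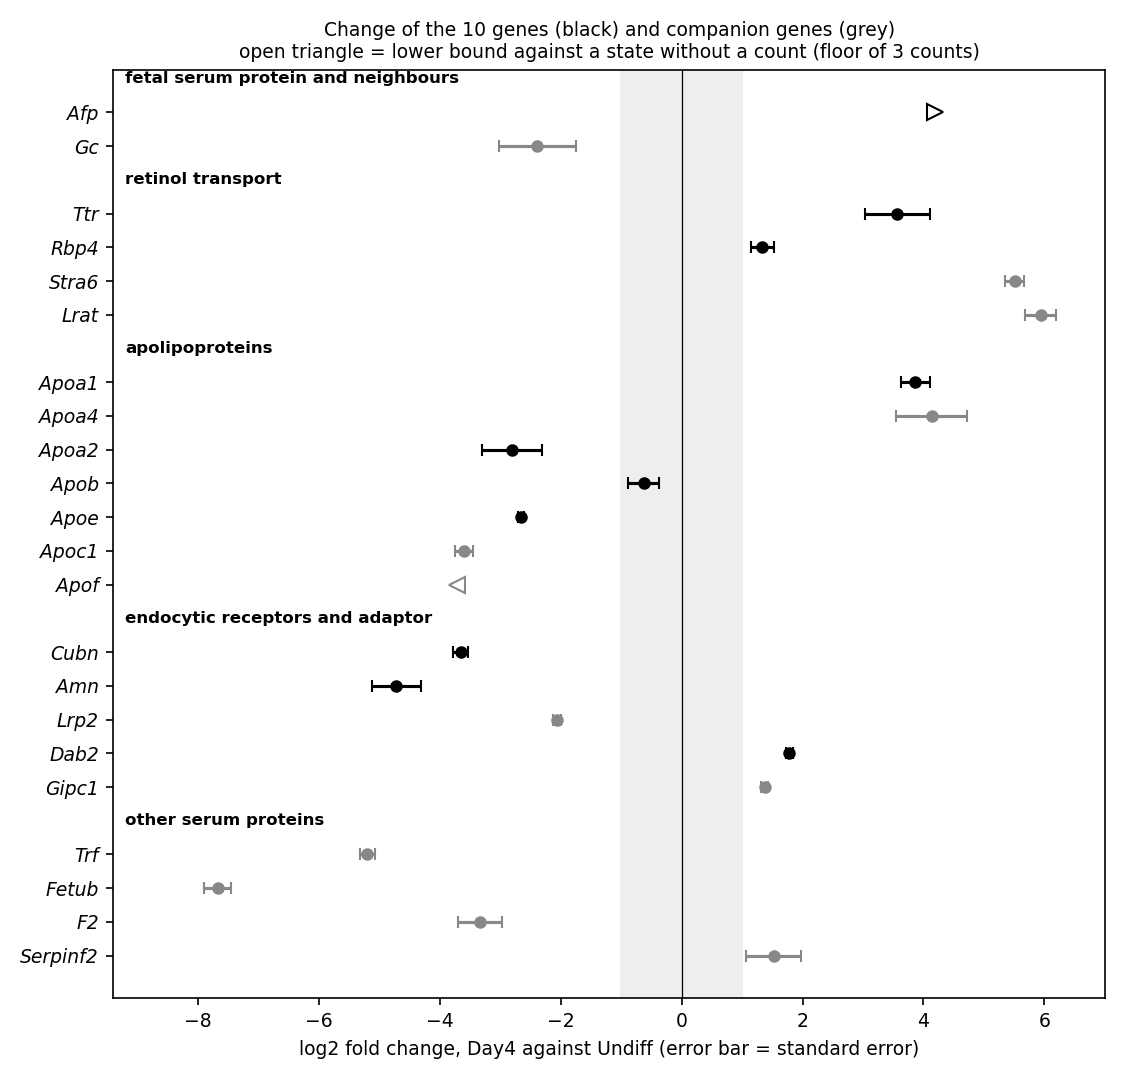
Log2 fold change of Day4 against Undiff (horizontal axis, 0 at the line and the band from -1 to 1 in grey) for the 10 genes (black) and companion genes (grey), with bars for the standard error and open triangles for a lower bound against a state without a count. Retinol genes and Apoa1 lie to the right, Apoa2, Apoe, Cubn and Amn to the left, and Dab2 lies on the opposite side from Cubn, Amn and Lrp2.

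Per length, the order of the 10 genes changed between the states. Levels between genes are compared as normalized CPM per kilobase of exon. In Undiff, Apoe stood at 132, Dab2 at 3.41 and Cubn at 2.07, followed by Apoa2 at 1.60, Rbp4 at 1.41 and Amn at 1.06. The replicates of Cubn and Apoa2 overlapped, as did those of Apoa2 and Rbp4. With the longest transcript as the length, Cubn (2.51 and 2.97) and Apoa2 (1.34 and 1.97) were apart, and Apoa2 and Rbp4 still overlapped. Apoa1 (0.229), Apob (0.143) and Ttr (0.0974) were lower, with Apob and Ttr overlapping, and Afp was at 0.

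In Day4, Apoe (20.9) and Dab2 (11.7) again led, and Rbp4 (3.55) and Apoa1 (3.39) came next with overlapping replicates. Ttr was at 1.17 and Afp at 0.488 CPM per kilobase. Afp, Apoa2 (0.239) and Cubn (0.164) were neighbours whose replicates overlapped in turn, and Apob (0.0954) and Amn (0.0414) came last. With the longest transcript as the length, Afp (1.10 and 0.497) and Apoa2 (0.377 and 0.119) were apart, and Afp overlapped Ttr (0.776 and 1.56). Apoe was 38.6 times as high as Dab2 in Undiff and 1.79 times as high in Day4.

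**Figure D3:**
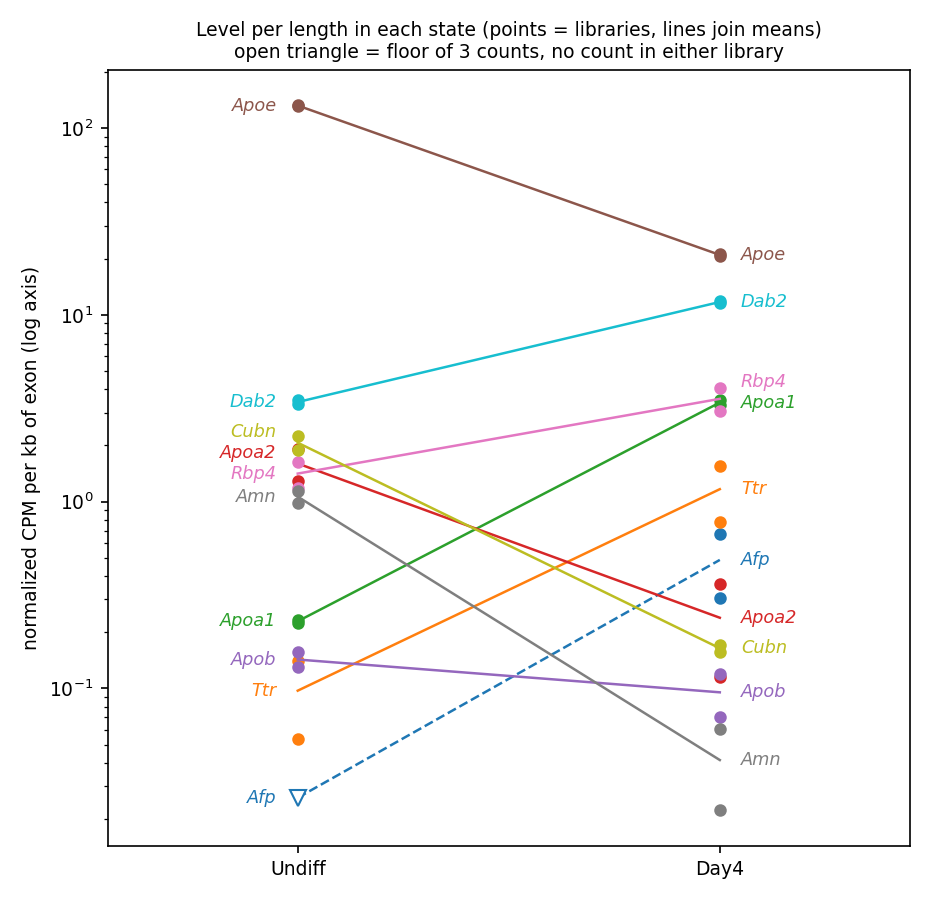
Level of each of the 10 genes per length (vertical log axis, normalized CPM per kilobase of exon) in Undiff and Day4, with a point for each library, lines between the means and an open triangle for Afp at the floor of 3 counts. Apoe falls from 132 to 20.9, the lines of Ttr, Apoa1 and Afp cross those of Cubn, Apoa2 and Amn, and Dab2 and Rbp4 rise.

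Summed over the 10 genes, the level was 342 and 348 CPM in Undiff and 145 and 148 in Day4, and Apoe set this direction. Apoe made up 82.5% and 81.0% of the counts of the 10 genes in Undiff and 30.5% and 30.4% in Day4. Without Apoe, the sum of the other 9 was 59.8 and 66.3 CPM in Undiff and 101 and 103 in Day4. The 6 secreted proteins without Apoe summed to 5.15 and 5.15 CPM in Undiff and 13.5 and 13.4 in Day4, and the 3 endocytic genes to 54.6 and 61.1 in Undiff and 87.5 and 89.6 in Day4. Dab2 carried the higher sum of the 9 and of the endocytic genes in Day4. Without Apoe and Dab2, the other 8 summed to 35.2 and 40.7 CPM in Undiff and 16.2 and 15.8 in Day4, and Amn and Cubn to 30.1 and 35.6 in Undiff and 2.68 and 2.38 in Day4. These sums are descriptions of unlike genes and were not tested.

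Other serum proteins of yolk sac and liver gave more lower than higher DEGs. Of the 22 listed, 2 were higher and 6 lower in Day4, 11 were tested without passing, and Alb, Apoh and Itih1 had 0 counts in all libraries. The minimum mean count was reached by 11 of the 22, and the rest could not pass. The median log2 fold change was -0.79 over the 19 tested. Trf, transferrin, the iron carrier of serum, had 829 and 724 counts in Undiff and 26 and 27 in Day4 (log2 fold change -5.20, SE 0.13, edgeR adjusted p = 4.6e-13). Fetub, a serum protease inhibitor, had 607 and 575 counts in Undiff and 1 and 6 in Day4 (-7.68, SE 0.22, adjusted p = 1.8e-12), or -9.15 without Day4 replicate 2. F2, prothrombin, was also lower (-3.33, SE 0.37, adjusted p = 1.8e-06).

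The 2 higher ones were low in both states. Fgb, the beta chain of fibrinogen, had 2 and 3 counts in Undiff and 14 and 9 in Day4, a ratio of pooled counts of 3.65 (95% exact counting interval 1.36 to 12.3, edgeR adjusted p = 0.032). Without Undiff replicate 1 its adjusted p was 0.15, without Day4 replicate 1 it was 0.17, and in DESeq2 it was 0.18, in a range over the alternatives of 0.0096 to 0.18. Serpinf2, the inhibitor of plasmin, changed by 1.53 (SE 0.45, adjusted p = 0.008), and without Undiff replicate 1 by 1.21 (adjusted p = 0.078). Its adjusted p was 0.12 in DESeq2, where neither of the 2 was a DEG, and 0.0029 at the lowest. The summed level of the 22 genes went from between 45.7 and 46.8 CPM in Undiff to between 3.29 and 3.57 in Day4, and in Undiff most of these counts were those of Trf and Fetub.

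Genes that load lipid onto apolipoproteins gave DEGs in both directions. Of 13 listed, Abca1 was higher, Apobec1, Dgat2 and Soat2 were lower, 8 did not pass and A1cf had no count, with a median log2 fold change of -0.34. Abca1, which exports cholesterol to apolipoprotein A-I, changed by 2.81 (SE 0.07, edgeR adjusted p = 3.3e-13). Apobec1, which edits the Apob message, changed by -4.40 (SE 0.15, adjusted p = 6.8e-12), and Soat2, which esterifies cholesterol for Apob particles, by -3.39 (SE 0.17, adjusted p = 5.5e-10). Mttp, the transfer protein that lipidates Apob, was at 356 normalized counts in Undiff and 573 in Day4 and was not a DEG (0.69, SE 0.08, adjusted p = 5.5e-06). Its exons overlap those of Trmt10a, and reads of the pair cannot be told apart if the strand was not used in counting.

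Receptors that bind apolipoprotein E moved in both directions. Lrp1, a remnant receptor (1.82, SE 0.06, edgeR adjusted p = 9.3e-12), and Vldlr (1.60, SE 0.12, adjusted p = 2.4e-08) were higher in Day4, and Lrp8 was lower (-1.65, SE 0.09, adjusted p = 1.6e-09).

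The markers of visceral endoderm itself gave no single direction. Of its 7 listed regulators, 6 were higher in Day4 and none was lower, with a median log2 fold change of 2.86 and a sum that went from between 9.66 and 11.1 CPM to between 545 and 549. Gata4 (5.86, SE 0.07, edgeR adjusted p = 6.4e-16) and Gata6 (7.09, SE 0.10, adjusted p = 2e-15) made up most of it, and both are also regulators of heart and other mesoderm. Sox17, a regulator of endoderm and of blood vessels, changed by 2.92 (SE 0.22, adjusted p = 3.4e-08). Hnf4a, the nuclear receptor that drives serum protein genes in visceral endoderm and liver, had 57 and 41 counts in Undiff and 34 and 80 in Day4 (log2 fold change -0.12, SE 0.27, adjusted p = 0.70), and its states overlapped.

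Genes of the visceral endoderm epithelium gave more lower than higher DEGs. Of 9 found in the files among 10 listed, Ihh was higher, Spink1, Vil1, Cldn6 and Soat2 were lower and 4 did not pass, with a median of -0.87 and a sum of 249 to 261 CPM in Undiff and 90.4 to 98.1 in Day4. The largest part of the Undiff sum was Cldn6, at 134 and 128 CPM in Undiff and 19.5 and 24.7 in Day4. Ihh, a hedgehog signal of visceral endoderm, changed by 3.89 (SE 0.25), Spink1 by -3.47 (SE 0.23) and Vil1, villin of the brush border, by -2.27 (SE 0.20, with exons that overlap those of Usp37). Of 5 genes of anterior visceral endoderm, Lhx1 (5.39, or 6.18 without Undiff replicate 1) and Dkk1 (3.66) were higher and Lefty1 (-7.14) and Hhex were lower. Their sum went from between 89.4 and 96.9 CPM to between 20.2 and 21.2. Most of the Undiff sum was Lefty1, at 82.2 and 89.3 CPM in Undiff and 0.642 and 0.574 in Day4. The median log2 fold change of the 5 was -1.24, and 1.21 over the 4 without Cer1, which was at the floor in both states. Cldn6 and Lefty1 were high in Undiff, as the ESC markers were, and which cells held these counts was not tested. The label visceral endoderm therefore names where these 10 genes are known from, and in these libraries its markers moved in both directions.

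Lists for other cell types that make some of the same proteins moved as well, and their part in the levels of the 10 genes was not tested. Of 12 genes of parietal endoderm, the sister lineage that lays down basement membrane and also makes Dab2, 8 were higher and 1 was lower in Day4. Their median log2 fold change was 1.68 and their sum went from between 1016 and 1053 CPM to between 2018 and 2060. The largest part of the sum was Sparc, at 374 and 379 CPM in Undiff and 874 and 865 in Day4. Plat was at 5.62 and 4.03 CPM in Undiff and 347 and 345 in Day4. Which cells held these counts was not tested. Plat (6.15, SE 0.08), Sox7 (3.89, SE 0.12) and Pth1r (3.15, SE 0.12, with exons that overlap those of Myl3) were higher, and Lama1, a laminin of that membrane, was lower (-2.34, SE 0.09).

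Hepatocyte markers were in part without a count. Of 10 listed, Alb, Cyp3a11, Serpina1a and G6pc had 0 counts in all 4 libraries, Prox1 (3.20, SE 0.26) and Tdo2 were higher and 4 did not pass. The minimum mean count was reached by 4 of the 10. The sum was 3.04 to 3.31 CPM in Undiff and 5.75 to 6.48 in Day4, and the median log2 fold change was -0.21 over the 6 tested and 1.43 over the 4 above the floor in a state. Tdo2, an enzyme that breaks down tryptophan, had 3 and 0 counts in Undiff and 12 and 17 in Day4, a pooled ratio of 7.68 (95% exact counting interval 2.38 to 39.4). Its log2 fold change was 2.85, or 2.00 without Undiff replicate 2, and the 6.74 without Undiff replicate 1 is a fit against a library with 0 counts. Without Day4 replicate 2 it missed the minimum mean count.

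Of 7 gut genes, Isx was higher and Vil1 lower, with a median of -0.53 and a sum of 4.92 to 5.51 CPM in Undiff and 2.46 to 3.24 in Day4. The minimum mean count was reached by 3 of the 7. Isx, an intestinal regulator of vitamin A uptake, had 1 and 1 counts in Undiff and 32 and 69 in Day4, a pooled ratio of 40.1 (95% exact counting interval 10.8 to 336). Pdx1, Nkx2-1, Pyy and Cdh17 had at most 5 counts in any library.

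Macrophages are a further source of apolipoprotein E. Of 9 markers listed, 8 were found in the files, and 2 of these reached the minimum mean count. Cd68 alone passed, and it was lower in Day4 (-3.73, SE 0.12, edgeR adjusted p = 4.1e-12), the same direction as Apoe. The sum went from between 19.4 and 21.0 CPM to between 1.67 and 1.85, nearly all of it counts of Cd68, a lysosomal protein, and the median over the 8 was -0.30. The defining genes Ptprc (2, 5, 0 and 0 counts) and Csf1r (8, 8, 5 and 4 counts) were near the floor in all 4 libraries.

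Choroid plexus, the tissue of the brain with the most transthyretin, was represented by 6 genes, of which 2 were higher and 2 lower. Aqp1, a water channel that is also made in blood vessels and mesothelium, had 0 and 7 counts in Undiff and 858 and 1235 in Day4 (7.84, SE 0.25). The log2 fold change of Aqp1 was 6.77 without Undiff replicate 1, and the value of 12.95 without Undiff replicate 2 is a fit against a library with 0 counts. Clic6 was also higher. Folr1, the folate receptor (-4.46, SE 0.11), and Foxj1, the regulator of motile cilia (-2.04, SE 0.22), were lower. The sum was 38.5 to 43.0 CPM in Undiff and 32.0 to 34.1 in Day4, and the median log2 fold change was -1.44.

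**Figure D4:**
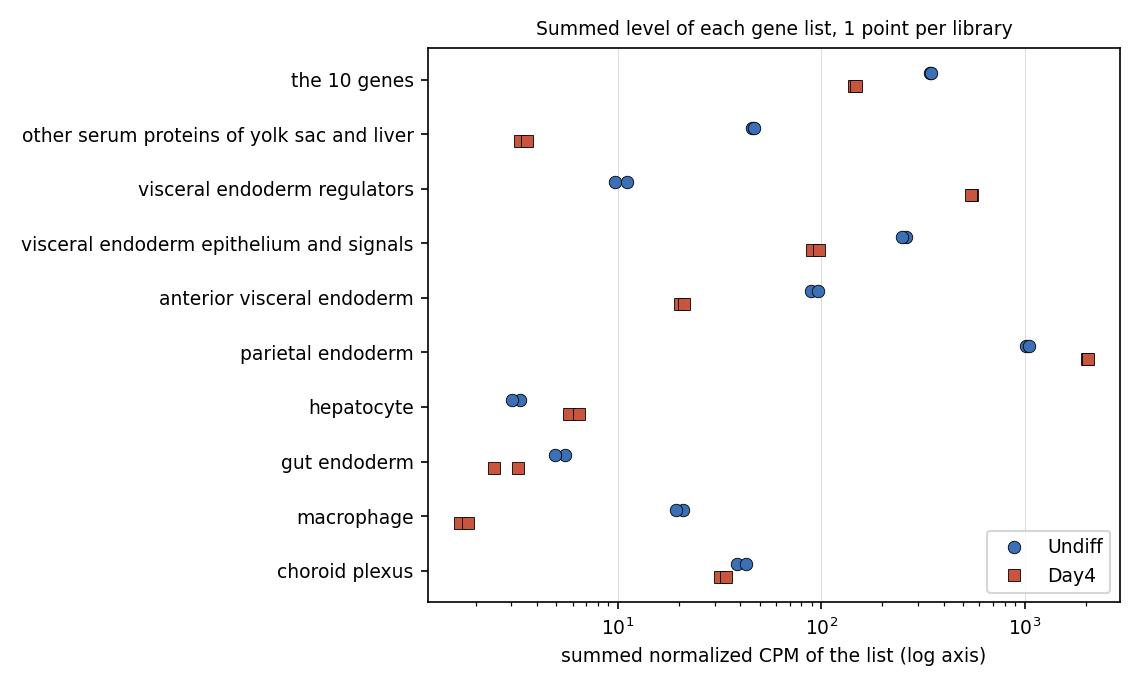
Summed level of each gene list (horizontal log axis, normalized CPM) with a point for each Undiff library (blue circles) and each Day4 library (red squares). The 10 genes, other serum proteins, visceral endoderm epithelium, anterior visceral endoderm, gut, macrophage and choroid plexus lists lie lower in Day4, and the regulator, parietal endoderm and hepatocyte lists lie higher.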

How the data were processed

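RNA of R1 cells was measured with 4 Illumina TruSeq libraries, 2 of Undiff and 2 of Day4, grouped by the sample titles. The deposited values are raw counts of fragments per gene symbol, which the authors made by trimming with cutadapt, aligning to mm10 with STAR (2.4.2a) and counting unique alignments with htseq-count. The methods name the TruSeq RNA kit and the labels also one that depletes ribosomal RNA. The strand option for these counts is not given in the sources used here. Fragments assigned to no gene were 12.1 and 13.2% of the total in the Undiff libraries and 7.50 and 7.74% in the Day4 libraries. Ambiguous fragments, which fit more than 1 gene, were 1.84 to 1.91% in each library, and both kinds were left out.

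Scaling used TMM, and the quasi-likelihood test of edgeR 4.0.16 (R 4.3.3, glmQLFit with legacy off) was run over all 19891 genes with a count, with Benjamini-Hochberg adjustment. Normalized counts refer to a library of the geometric mean effective size. The standard error is the size of the log2 fold change divided by the square root of F. A state without a count was set to 3 counts per library for a lower bound. Counting intervals are exact conditional 95% intervals and cover counting error only.

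Gene positions and exon lengths are those of GENCODE vM21, which is not the annotation the authors counted on. The members and lists were chosen with earlier results of these data known. The text names the 10 members, their genomic neighbours, fixed defining genes, the 3 DEGs with the largest change in each list and those against its majority. Apom, Dgat2, Hhex, Cldn6, Clic6, Sparc, Cltc, Clcn5, the ESC markers and genes at or near 0 were named besides. Some genes of the retinol and receptor lists are not reported here, nor are the counts of these lists. Alternatives were DESeq2 1.42.0 with and without shrinkage, other scalings and filters, thinning, a replicate block and leaving out each library.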

Additional observations from a re-analysis of the deposited data

How the results depend on the processing

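Each member kept its direction under every alternative run, and the 5 higher and 4 lower DEGs kept their calls. Apob became a lower DEG, for 5 in all, without Day4 replicate 1 and without a minimum fold change. Without a minimum fold change there were 7305 higher and 7004 lower genes in all, and 41 lower genes in the companion lists against 24. DESeq2 called 4137 higher and 3977 lower genes with shrinkage and 4139 and 3975 without. Leaving out single libraries gave 4195 to 4439 higher and 3889 to 4170 lower genes. Hnf4a turned to 0.04 without Undiff replicate 1 and to 0.17 without Day4 replicate 1, within a range of -0.65 to 0.17. Of 520 values of 48 other genes taken by the naming rule, 509 kept direction and call, 9 (of Gc, Fgb, Serpinf2 and Tdo2) lost the call and 2 (of Hnf4a) reversed, and the cause was not tested. Of 364 counts of DEGs in single lists, 346 stayed within 1.5 times. On the given strand only, 2 members had GTTAAT, 5 had TATAAA, 1 had FOXA letters, 1 had GATA letters and 0 had AGGTCA.

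Replicates were grown separately, which does not settle whether same-numbered Undiff and Day4 libraries are paired, and the main test used no pairing. The replicate differences of the states had r = -0.01 over 16472 genes. With the replicate block, 4414 genes were higher and 4101 lower, and no call of a member changed. Depth limits Afp, Ttr, Apoa2 and Amn, which had under 10 counts in each library of a state.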
